A study of Bos taurus with 56 samples.

Results

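Arginine, proline and polyamine metabolism was followed in the bovine oviduct epithelium through 10 genes, NOS2, ARG2, ODC1, OAT, ALDH18A1, PYCR1, ASS1, ASL, SRM and SMS. The genes were chosen by symbol from the table of read counts, which holds 31903 genes, and each of the 10 symbols had 1 row. RNA was sequenced from 5 nulliparous heifers, 5 primiparous non-lactating cows that were never milked after calving and 4 primiparous lactating cows, all Holstein. The groups were described as matched in age, which the sources used here do not give in figures, the cows were at about 60 days post-partum, and all animals were slaughtered on Day 3 after an estrus synchronized with progesterone, a prostaglandin F2 alpha analogue and a GnRH analogue, without insemination. The epithelium was scraped from the isthmus and the ampulla of the oviduct on the side of the corpus luteum (ipsilateral) and on the other side (contralateral), which gave 56 libraries over 12 conditions, 1 library per animal and tissue. Both oviducts of an animal thus shared the hormone treatment, while the metabolic groups were different animals.

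Arginine is a branch point. Nitric oxide synthases turn it into nitric oxide and citrulline, and argininosuccinate synthase (ASS1) and argininosuccinate lyase (ASL) rebuild it from citrulline. Arginase (ARG2 is the mitochondrial form) splits it into urea and ornithine. Ornithine is decarboxylated by ornithine decarboxylase (ODC1), the rate-limiting step of polyamine synthesis, to putrescine, which spermidine synthase (SRM) and spermine synthase (SMS) extend to spermidine and spermine. Ornithine aminotransferase (OAT) links ornithine to pyrroline-5-carboxylate, the intermediate that ALDH18A1 makes from glutamate and that PYCR1 reduces to proline. Polyamines are needed for cell growth and translation, proline for collagen and other proteins, and nitric oxide is known in the oviduct as a signal to smooth muscle and cilia.

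The libraries held 1901454 to 6836850 reads on genes (median 4931502.5). Values are read counts scaled to a common library size (CPM) after TMM scaling, a correction of the library total, over all 56 libraries. A difference was called at a Benjamini-Hochberg adjusted p under 0.05 in edgeR's quasi-likelihood test over all genes tested, and every adjusted p for edgeR given here comes from that test. Animals are named by letter within their group. In the ipsilateral ampulla, 4 libraries went against their column names when each was correlated, over 200 genes, with the other libraries of each animal. The 200 genes were those, of 10616, that varied most between animals relative to within them, by the numbers in the column names. A high correlation with the own animal was therefore partly built in. The library of the non-lactating group that bears the number of lactating cow B correlated at 0.037 with that animal and at 0.70 with non-lactating cow C, and the library of the lactating group numbered as non-lactating cow C correlated at 0.010 with that animal and at 0.85 with lactating cow B. For the library of heifer B the correlation was 0.35 with its own animal and 0.69 with non-lactating cow B, and for that of non-lactating cow B it was 0.46 with its own animal and 0.54 with heifer B. The remaining 52 libraries correlated best with their own animal, at 0.476 or more. All 4 were kept in the group of their name, and the comparisons averaged over the metabolic groups that use the ipsilateral ampulla were also run without them.

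The labelled tissue was checked on marker genes. Markers of ciliated and secretory epithelium were found in every library, with FOXJ1 of ciliated cells at 150 to 441 CPM and the general epithelial marker EPCAM at 165 to 518 CPM. OVGP1, the oviduct-specific glycoprotein of secretory cells, ranged from 37.7 to 36154 CPM, so that the summed secretory markers ran from 1125 to 15789 CPM in the ipsilateral and from 773 to 19457 CPM in the contralateral isthmus. In the ampulla they ran from 3039 to 15158 CPM and from 3365 to 37090 CPM, and the part of this spread in the results was not tested. Summed markers of macrophages, other leukocytes and fibroblasts had medians of 17.6 to 36.7 CPM in every tissue, and HBB and HBA of red blood cells were at 0 in all 56 libraries. Single libraries stood well above these medians. The highest sums were 188 CPM for macrophages, 150 CPM for other leukocytes and 176 CPM for fibroblasts, each in the contralateral ampulla of lactating cows. The part of such libraries in the results was not tested.

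Among the 10 genes, 9 passed the filter on low counts in every comparison and ARG2 in none. ARG2 had 0 to 14 counts per library, was at 0 in 23 of 56 libraries and below the floor of 3 counts in 40. The condition means of ARG2 ran from 0.118 ± 0.237 CPM (SD, n = 4) in the ipsilateral ampulla of lactating cows to 1.20 ± 0.895 CPM (n = 5) in heifers' ipsilateral isthmus, so differences of this gene were mostly not detectable at this depth. The highest condition mean exceeded the lowest 11.1 times for NOS2, 4.89 times for ODC1, 3.27 times for SMS, 3.17 times for PYCR1, 3.14 times for ALDH18A1 and 1.78 to 2.16 times for SRM, OAT, ASS1 and ASL. When the 12 conditions were put in order of a gene's mean, neighbours in that order differed by less than the larger of their SDs except at 1 of 11 steps for ODC1, OAT, ALDH18A1, PYCR1, ASS1 and SMS, and at none for the other genes. For ODC1 and ALDH18A1 that step lay between non-lactating cows' ipsilateral isthmus and heifers' contralateral isthmus, with the ipsilateral isthmus of all 3 metabolic groups above it. For SMS it lay between the isthmus and the ampulla, with all 6 isthmus conditions above it.

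**Figure D1:**
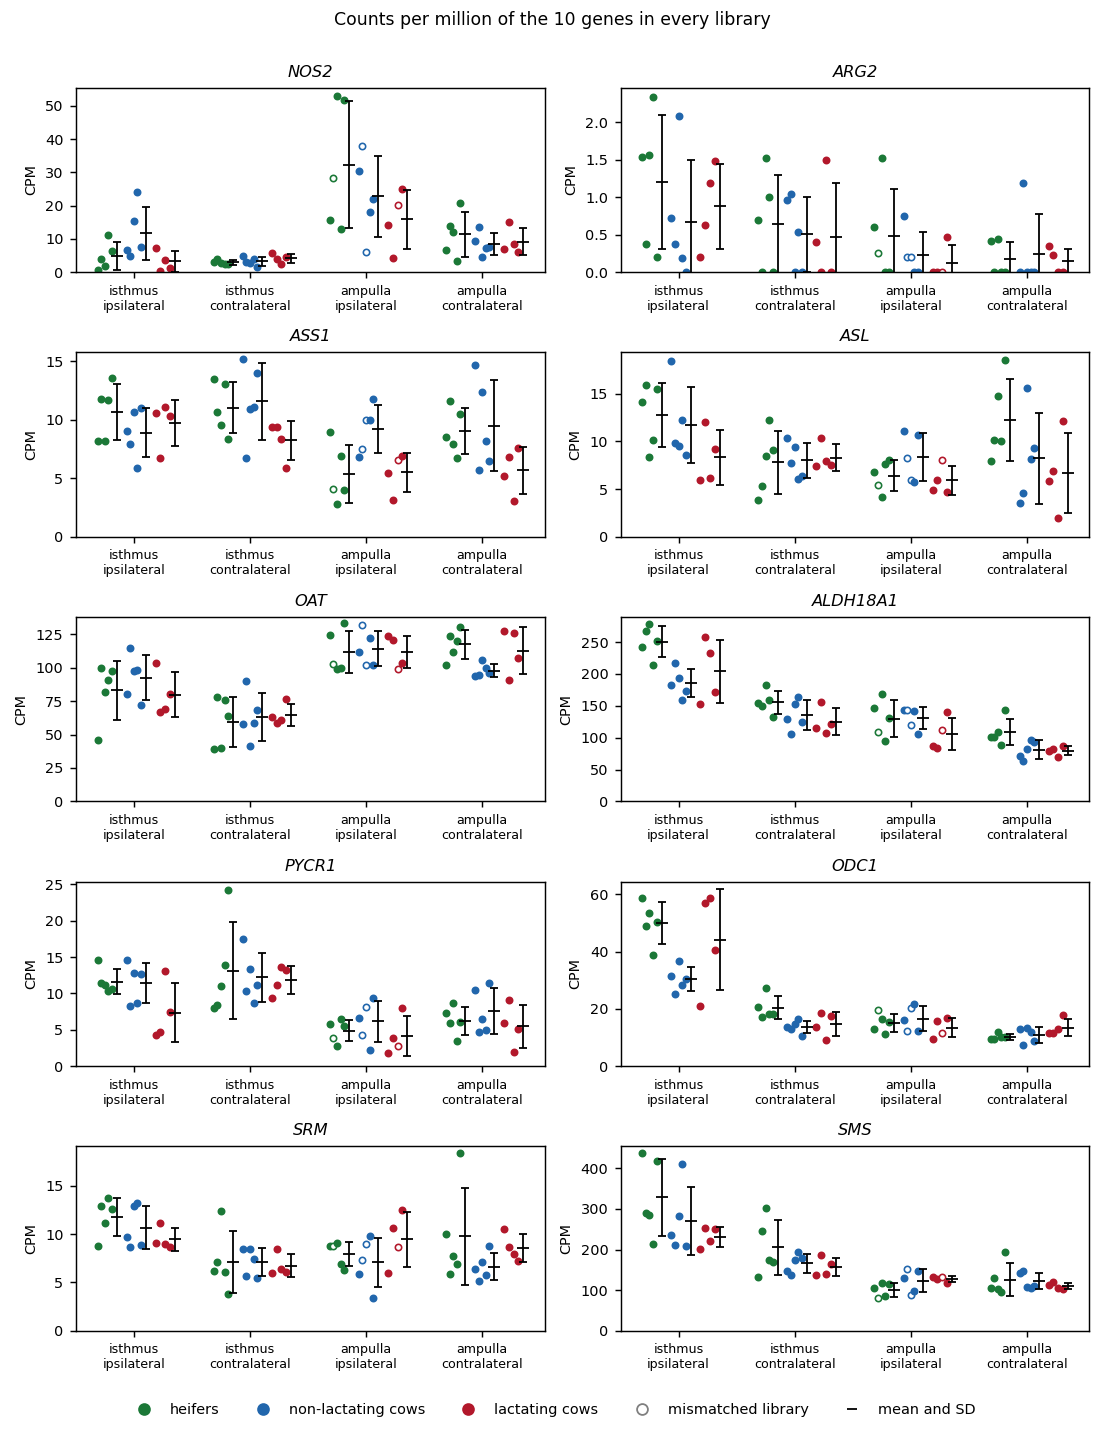
CPM of each of the 10 genes (vertical axis, linear, from 0) in the 4 tissues, with 1 point per library, colours for the metabolic group, open points for the 4 mismatched libraries and black bars for the mean and SD of a condition (cut off at 0). ODC1, ALDH18A1 and SMS have their 3 highest condition means in the ipsilateral isthmus (for ODC1 50.1, 44.2 and 30.5 CPM), NOS2 in the ipsilateral ampulla (32.3, 22.8 and 15.9 CPM), and ARG2 does not exceed 2.33 CPM.

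The question of the main comparison was whether the oviduct on the side of the corpus luteum differed from the opposite one. In the isthmus, averaged over the 3 metabolic groups, 5 of the 9 genes tested were higher ipsilaterally and none lower, where 27.2% of the 15031 genes tested were called, 14.3% higher and 12.9% lower. The 5 genes were ODC1, SRM and SMS of the polyamine branch and ALDH18A1 and OAT of the proline and ornithine branch. The median log2 fold change was 0.58 over the 9 genes and -0.02 over all genes tested. The genes were chosen with earlier results of these data known, so these differences from all genes are a description and no independent test. In bulk epithelium, a larger share of cells that express a gene and more RNA per cell cannot be told apart. The summed smooth muscle markers also stood higher in the ipsilateral isthmus, at a median of 54.0 CPM (30.0 to 93.8) against 38.8 CPM (9.84 to 82.2), with ACTG2 at 0 in 35 and CNN1 at 0 in 44 of the 56 libraries. Over the 56 libraries MYH11 ran from 0 to 88.5 CPM, ACTA2 from 2.57 to 25.0 and DES from 0.192 to 8.20 CPM. The highest of these sums thus rested mostly on MYH11. Summed endothelial markers were lower ipsilaterally, at a median of 18.2 against 33.3 CPM. Over the 56 libraries KDR had a median of 74.3 CPM, VWF of 4.37 and PECAM1 of 2.97 CPM, so KDR weighed most in that sum. The part of either cell type in these results was not tested.

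ODC1 gave the largest difference of the 9. In heifers A to E its level in the ipsilateral isthmus was 58.8, 49.0, 53.6, 38.8 and 50.4 CPM, against 20.7, 17.3, 27.3, 18.3 and 18.2 CPM contralaterally. In non-lactating cows A to E it was 31.4, 25.4, 36.8, 28.4 and 30.3 CPM against 13.8, 12.9, 14.6, 16.4 and 10.7 CPM. Lactating cows A to D had 20.8, 56.8, 58.6 and 40.5 CPM against 13.6, 18.7, 9.20 and 17.6 CPM. The sides did not overlap within any metabolic group, which held, ipsilateral higher, for 5.59% of genes in heifers, 3.81% in non-lactating cows and 4.34% in lactating cows. The ipsilateral library was the higher of the pair in 14 of 14 animals, which held for 3.07% of the genes tested. Lactating cow A had the smallest ratio (1.54) and lactating cow C the largest (6.37). Over all 28 isthmus libraries the level was 41.4 ± 13.1 CPM ipsilaterally and 16.4 ± 4.53 CPM contralaterally (n = 14 each), a log2 fold change of 1.33 ± 0.13 (SE, adjusted p = 9.06e-08).

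The later steps of the polyamine branch differed less. SMS in heifers A to E was at 436, 290, 285, 214 and 419 CPM in the ipsilateral isthmus and at 132, 247, 303, 175 and 169 CPM in the contralateral one. In non-lactating cows A to E it was at 236, 210, 283, 410 and 210 CPM against 148, 137, 174, 193 and 179 CPM, and in lactating cows A to D at 202, 254, 220 and 249 CPM against 138, 186, 139 and 165 CPM. The sides overlapped in heifers and did not overlap in either group of cows. Sides apart in that direction were seen for 3.81% of genes in non-lactating and 4.34% in lactating cows. In heifers, the contralateral values of B (247 CPM) and C (303 CPM) lay above the ipsilateral value of D (214 CPM). The log2 fold change over the 3 groups was 0.64 ± 0.13 (adjusted p = 0.000459), with the ipsilateral library higher in 13 of 14 animals. SRM rose by 0.58 ± 0.14 on the log2 scale (adjusted p = 0.00201), from a median of 6.32 to 10.4 CPM, also in 13 of 14 animals. A higher ipsilateral value in 13 or 14 of 14 animals was seen for 7.62% of the genes tested.

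In the proline and ornithine branch, ALDH18A1, the first enzyme of proline synthesis from glutamate, was at 243, 268, 279, 214 and 251 CPM in the ipsilateral and at 154, 150, 183, 158 and 133 CPM in the contralateral isthmus of the 5 heifers in letter order. The 5 non-lactating cows had 182, 217, 194, 159 and 173 CPM against 130, 105, 154, 164 and 125 CPM, and lactating cows A to D had 153, 257, 233 and 172 CPM against 115, 156, 107 and 121 CPM. The sides were apart in heifers, as for 5.59% of genes in that direction, and overlapped in both groups of cows. Non-lactating cow D was the only animal of 14 with the lower value ipsilaterally. The log2 fold change over the 3 groups was 0.60 ± 0.08 (adjusted p = 6.76e-06). OAT rose by 0.44 ± 0.13 on the log2 scale (adjusted p = 0.013), from 62.3 ± 15.2 to 85.6 ± 18.2 CPM, and was higher ipsilaterally in 14 of 14 animals, with a median ratio of 1.28. PYCR1, the last enzyme of proline synthesis, did not pass the test, with 10.3 ± 3.30 CPM ipsilaterally and 12.4 ± 4.28 CPM contralaterally (log2 fold change -0.34 ± 0.17, adjusted p = 0.145), and was higher ipsilaterally in 4 of 14 animals.

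The arginine and nitric oxide genes did not pass the test in the isthmus over the 3 groups. ASS1 had a log2 fold change of -0.08 ± 0.13 (adjusted p = 0.698), ASL of 0.40 ± 0.16 (adjusted p = 0.0714) and NOS2, the inducible nitric oxide synthase, of 0.75 ± 0.36 (adjusted p = 0.12). The ratio of ipsilateral to contralateral NOS2 varied widely between animals, from 0.107 in lactating cow B to 6.05 in non-lactating cow D, and was above 1 in 9 of 14. The ARG2 level was 0.919 ± 0.767 CPM ipsilaterally and 0.546 ± 0.575 CPM contralaterally.

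**Figure D2:**
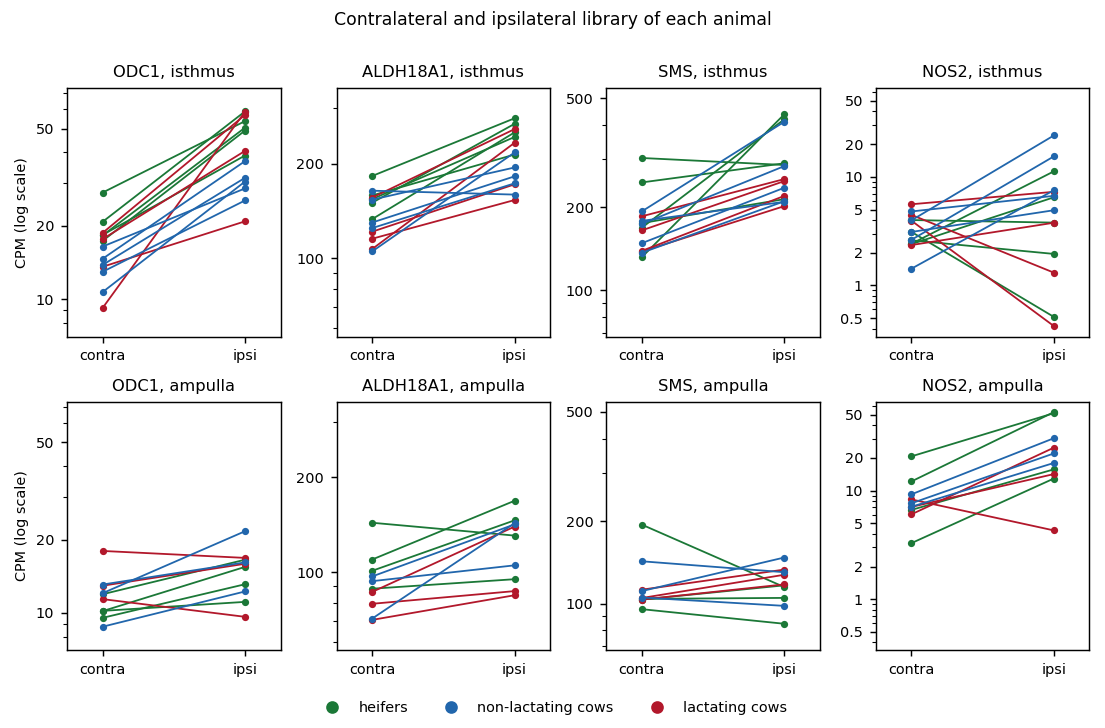
CPM on a log axis (the same range for both regions of a gene) in the contralateral and ipsilateral library of each animal, joined by a line, for ODC1, ALDH18A1, SMS and NOS2 in 14 animals in the isthmus and in the 10 animals of the ampulla without a mismatched library. ODC1 rises in all 14 lines of the isthmus, SMS and ALDH18A1 in 13, while NOS2 rises in 9 of 14 lines there and in 9 of 10 in the ampulla.

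Taken group by group, the isthmus of heifers had 2 genes higher ipsilaterally, ODC1 (1.26 ± 0.15, adjusted p = 0.0045) and ALDH18A1 (0.66 ± 0.10, adjusted p = 0.0056), where 10% of 13548 genes were called and 5.71% called higher. In non-lactating cows 3 genes were higher, where 5.11% of 13869 genes were called and 2.94% called higher. These were ODC1 (1.14 ± 0.15, adjusted p = 0.00255), NOS2 (1.87 ± 0.46, adjusted p = 0.038) and SMS (0.69 ± 0.18, adjusted p = 0.0481). NOS2 in non-lactating cows A to E was at 6.68, 4.92, 15.4, 24.0 and 7.51 CPM ipsilaterally and at 4.80, 3.11, 2.63, 3.97 and 1.43 CPM contralaterally. The sides thus did not overlap, though by a small margin between animals B and A, as for 3.81% of genes in that direction. The calls of NOS2 and SMS were lost when any 1 of the 5 animals was left out, with adjusted p-values of 0.0518 to 0.166 for NOS2 and 0.0574 to 0.153 for SMS, while ODC1 was called each time. In heifers, both calls were held with any animal left out. With the animal as a block, OAT was called in heifers as well (0.48 ± 0.13, adjusted p = 0.0306, against 0.224 without the block), and DESeq2 added SMS (adjusted p = 0.0452) but not OAT. Shares of all genes called in heifers with the block and with DESeq2 are not given here, so these added calls cannot be set against them.

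In the isthmus of lactating cows edgeR's quasi-likelihood test called 0 of the 9 genes, where it called 0.187% of 13904 genes. ODC1, ALDH18A1, SMS and SRM, 4 of the 9, had an unadjusted p under 0.05, as had 12.2% of genes. The log2 fold changes were 1.58 ± 0.33 for ODC1 (adjusted p = 0.107), 0.71 ± 0.18 for ALDH18A1 (adjusted p = 0.16) and 0.56 ± 0.13 for SMS (adjusted p = 0.116). With the animal as a block, which uses the pairing of the 2 oviducts of each animal, the adjusted p-values were 0.0315, 0.0338 and 0.0282, where 2.32% of genes were called, and DESeq2 called these 3 genes, with 2.62% of all genes. SRM, ODC1 and SMS had sides that did not overlap in these 4 animals, higher ipsilaterally, as had 4.34% of genes.

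Whether the side difference itself depended on the metabolic group was tested as an interaction over the 28 libraries of a region. None of the 9 genes was called in the isthmus or in the ampulla by edgeR's quasi-likelihood test, DESeq2 called none either, and 0% of all genes were called in each region. In edgeR's test without a block, the lowest unadjusted p was 0.0559 for NOS2 in the isthmus and 0.142 for ODC1 in the ampulla. Thus 0 of the 9 were under 0.05, against 2.05% and 1.15% of all genes. With the animal as a block 1 of the 9 was under 0.05 in the isthmus, and with DESeq2 1 of 10. In the ampulla both gave 0. Shares over all genes for these 2 fits at that threshold are not given here, and the block called none after adjustment. A call in heifers or non-lactating cows and none in lactating cows, as for ODC1, was therefore not shown to be a difference between the groups.

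In the ampulla, averaged over the 3 metabolic groups, 2 of the 9 genes were higher ipsilaterally and none lower, where 4.09% of 15270 genes were called and 2.23% were called higher. These were NOS2 and ALDH18A1, and the median log2 fold change over the 9 genes was -0.03, against -0.01 over all genes tested. NOS2 was at 15.7, 28.3, 52.8, 12.9 and 51.7 CPM in the ipsilateral and at 6.65, 13.7, 12.2, 3.28 and 20.7 CPM in the contralateral ampulla of heifers A to E. The ipsilateral libraries of non-lactating cows A, B, D and E had 30.4, 37.9, 18.0 and 22.0 CPM and the library of that group numbered as lactating cow B had 5.96 CPM, against 9.25, 13.5, 4.59, 7.10 and 7.65 CPM in the contralateral libraries of A to E. Lactating cows A, C and D had 14.2, 4.30 and 24.9 CPM and the library numbered as non-lactating cow C had 20.3 CPM, against 7.08, 15.0, 8.30 and 6.05 CPM contralaterally in A to D. The sides overlapped in each group, and lactating cow C was the only animal of the 10 with matched libraries whose ipsilateral value was the lower.

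The log2 fold change of NOS2 in the ampulla was 1.24 ± 0.29 (adjusted p = 0.0157), from 9.64 ± 4.77 to 24.2 ± 14.9 CPM (n = 14 each). Without the 4 mismatched libraries it was 1.22 ± 0.30 (adjusted p = 0.0353), and without lactating cow D the call was lost (1.10, adjusted p = 0.0599). Summed macrophage markers, which belong to a cell type known to express NOS2, had medians of 35.7 CPM (19.3 to 107) ipsilaterally and 36.7 CPM (19.8 to 188) contralaterally, with CD163 at 0 in 10 of the 56 libraries. The part of macrophages in this NOS2 result was not tested. ALDH18A1 rose by 0.44 ± 0.10 on the log2 scale (adjusted p = 0.00987), from 90.6 ± 20.1 to 123 ± 25.3 CPM, and was higher ipsilaterally in 9 of 10 animals, as NOS2 was, where 6.36% of genes were higher in 9 or 10 of the 10. Without the mismatched libraries its adjusted p was 0.0375, and with the animal as a block as well it was 0.0772 (0.40 ± 0.11), which lost the call.

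Polyamine genes were not called in the ampulla. ODC1 had 15.1 ± 3.67 CPM ipsilaterally and 11.4 ± 2.58 CPM contralaterally (log2 fold change 0.38 ± 0.13, adjusted p = 0.105), and was higher in 8 of 10 animals. SMS had 116 ± 22.5 against 120 ± 26.2 CPM (-0.04 ± 0.10, adjusted p = 0.888) and SRM 8.07 ± 2.30 against 8.31 ± 3.28 CPM (-0.03 ± 0.18, adjusted p = 0.953). OAT differed by 0.04 ± 0.07, PYCR1 by -0.36 ± 0.25, ASS1 by -0.28 ± 0.19 and ASL by -0.37 ± 0.23 on the log2 scale, with adjusted p-values of 0.411 to 0.834. Within single metabolic groups edgeR's quasi-likelihood test called 0 of the 9 genes, where it called 0% of genes in heifers, 0.0947% in non-lactating cows and 0% in lactating cows. An unadjusted p under 0.05 was reached by 4 of the 9 in heifers, 3 in non-lactating cows and 1 in lactating cows, against 9.2%, 11.1% and 4.26% of all genes. DESeq2 called NOS2 and ALDH18A1 in non-lactating cows, with 0.99% of genes, and none of the 9 in heifers or lactating cows, with 0.399% and 0.0636% of genes. With the animal as a block, NOS2 was called in non-lactating cows (1.51 ± 0.25, adjusted p = 0.0083), where 1.08% of genes were called, and without the library numbered as lactating cow B it was called without the block (1.68, adjusted p = 0.0332). Leaving out other libraries or animals in turn gave adjusted p-values of up to 0.541 for NOS2, and without both mismatched libraries of that group none of the 9 was called (NOS2 1.47 ± 0.33, adjusted p = 0.16). In heifers and lactating cows none was called without their mismatched library either.

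**Figure D3:**
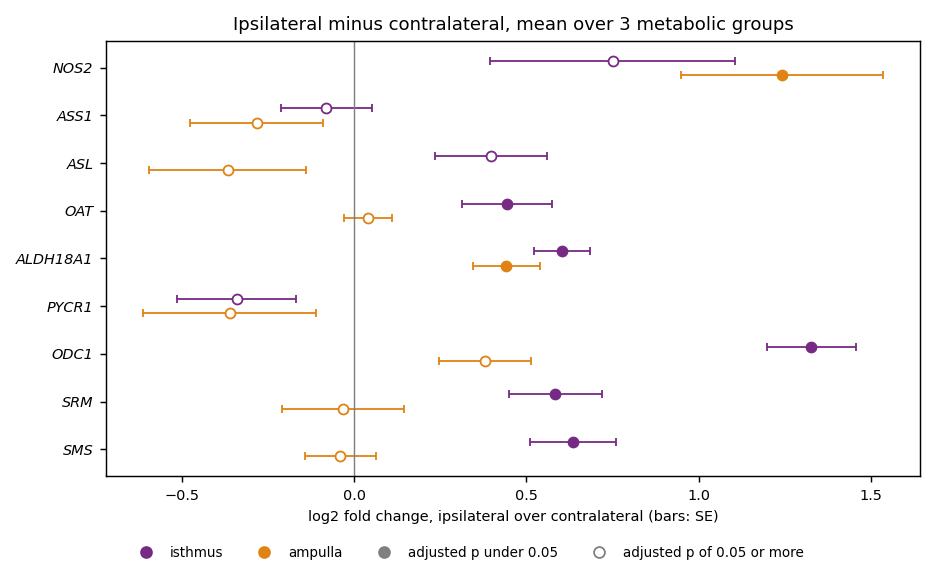
Log2 fold change of ipsilateral over contralateral (horizontal axis) with its SE for the 9 genes tested, in the isthmus and the ampulla, averaged over the 3 metabolic groups, filled where the adjusted p was under 0.05. ODC1 has 1.33 in the isthmus and 0.38 in the ampulla, SMS 0.64 and -0.04, and ALDH18A1 is filled in both regions.

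The side differences of the isthmus and the ampulla were set against each other in a single fit over the 56 libraries. Of the 9 genes, 2 had a larger ipsilateral excess in the isthmus and none a smaller one, where 4.95% of 16060 genes were called and 3.19% were larger in the isthmus. These were ODC1, by 0.95 ± 0.18 on the log2 scale (adjusted p = 0.00125), and SMS, by 0.68 ± 0.17 (adjusted p = 0.0115). Both were called without the mismatched libraries (adjusted p = 0.00374 and 0.0316). SRM (0.62 ± 0.22, adjusted p = 0.0955), OAT (0.40 ± 0.15, adjusted p = 0.108) and ASL (0.77 ± 0.29, adjusted p = 0.108) did not pass the test. ALDH18A1 (0.16 ± 0.13, adjusted p = 0.558) and NOS2 (-0.49 ± 0.48, adjusted p = 0.637) did not pass either, so their side difference was not shown to depend on the region.

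Isthmus and ampulla differed in more of the genes than the 2 sides did. On the ipsilateral side 9 of 9 genes were called, 7 higher in the isthmus and 2 higher in the ampulla, where 49.6% of 15276 genes were called, 24.1% higher in the isthmus and 25.5% higher in the ampulla. On the contralateral side 6 of 9 were called, 4 higher in the isthmus and 2 in the ampulla, where 42.5% of 15387 genes were called, 21.1% and 21.4% in the 2 directions. Without the 4 mismatched libraries 9 of 9 were called on the ipsilateral side, in the same directions. The median log2 fold change of isthmus over ampulla was 0.63 ipsilaterally and 0.37 contralaterally, against -0.02 and -0.01 over all genes tested. These comparisons share libraries with those between the sides. Summed markers of ciliated cells had medians of 3185 and 3221 CPM in the ipsilateral and contralateral isthmus and of 4024 and 4334 CPM in the ampulla, those of endothelium 18.2 and 33.3 against 119 and 191 CPM, and those of smooth muscle 54.0 and 38.8 against 16.7 and 15.6 CPM. The highest smooth muscle sums rested mostly on MYH11, which ran from 0 to 88.5 CPM over the 56 libraries. The part of these cell types in the regional results was not tested.

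Among the genes higher in the ipsilateral isthmus, ODC1 and SMS had the largest log2 fold changes and SRM the smallest. ODC1 was 2.68-fold higher there (log2 fold change 1.42 ± 0.14, adjusted p = 1.55e-09) and 1.40-fold higher contralaterally (0.48 ± 0.13, adjusted p = 0.00276). SMS was 2.31-fold higher ipsilaterally (1.21 ± 0.12, adjusted p = 1.49e-09), with 202 to 436 CPM in the isthmus and 81.5 to 152 CPM in the ampulla, 2 ranges that did not overlap, as for 3.14% of genes in that direction. Contralaterally SMS differed by 0.54 ± 0.12 (adjusted p = 0.000375) with overlapping ranges. SRM rose by 0.37 ± 0.14 ipsilaterally (adjusted p = 0.0269), a call lost when heifer D (adjusted p = 0.0619), heifer E (0.059), lactating cow A (0.0575) or non-lactating cow C (0.059) was left out. With the animal as a block and without the mismatched libraries SRM was not called either (0.42 ± 0.17, adjusted p = 0.0605), and it had a log2 fold change of -0.24 ± 0.18 contralaterally (adjusted p = 0.303).

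Both enzymes of proline synthesis were higher in the isthmus on each side. PYCR1 had 10.3 ± 3.30 against 5.12 ± 2.38 CPM ipsilaterally (0.97 ± 0.22, adjusted p = 0.00047) and 12.4 ± 4.28 against 6.52 ± 2.64 CPM contralaterally (0.96 ± 0.21, adjusted p = 0.000444). ALDH18A1 rose by 0.78 ± 0.10 ipsilaterally (adjusted p = 1.23e-07) and by 0.63 ± 0.09 contralaterally (adjusted p = 1.14e-06). The arginine-making pair passed the test on the ipsilateral side, ASS1 by 0.56 ± 0.16 (adjusted p = 0.00498) and ASL by 0.63 ± 0.16 (adjusted p = 0.00174). Contralaterally their values were 0.37 ± 0.17 for ASS1 (adjusted p = 0.0753) and -0.13 ± 0.23 for ASL (adjusted p = 0.698).

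NOS2 and OAT were the 2 genes higher in the ampulla. The lowest, median and highest NOS2 levels were 4.30, 21.1 and 52.8 CPM in the ipsilateral ampulla and 0.423, 5.70 and 24.0 CPM in the ipsilateral isthmus, and 3.28, 7.97 and 20.7 CPM against 1.43, 3.11 and 5.59 CPM on the contralateral side. The log2 fold change of isthmus over ampulla was -2.02 ± 0.38 ipsilaterally (adjusted p = 6.35e-05; without the mismatched libraries -1.99 ± 0.40, adjusted p = 0.000282) and -1.51 ± 0.25 contralaterally (adjusted p = 1.2e-05). Macrophage marker sums had medians of 24.4 and 30.9 CPM in the ipsilateral and contralateral isthmus, below those of the ampulla, and their part in the NOS2 result was not tested. OAT had a log2 fold change of -0.43 ± 0.10 ipsilaterally (adjusted p = 0.000751) and of -0.81 ± 0.11 contralaterally (adjusted p = 5.92e-07). On the contralateral side its ranges of 39.1 to 90.1 CPM in the isthmus and 90.6 to 130 CPM in the ampulla did not overlap, as for 1.35% of genes in that direction.

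With edgeR, ARG2 was tested only when the filter on low counts was dropped. It then had a log2 fold change of isthmus over ampulla of 1.86 ± 0.63 ipsilaterally (adjusted p = 0.0218) and of 1.43 ± 0.83 contralaterally (adjusted p = 0.222), on 0 to 14 counts per library, and was called in none of the other 23 comparisons. DESeq2, which applies its own filter, called it in the ipsilateral comparison of the regions (1.99 ± 0.72, adjusted p = 0.0159) and in no other.

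**Figure D4:**
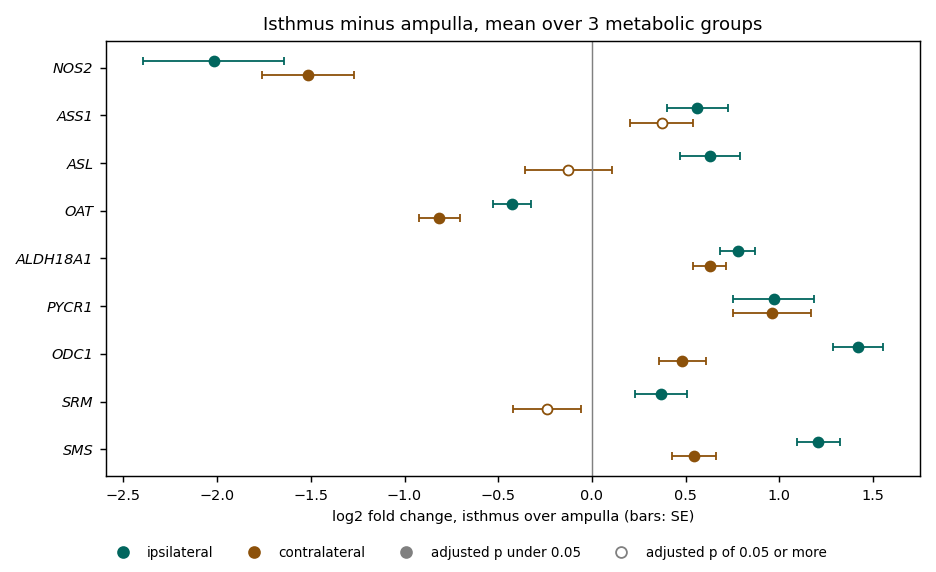
Log2 fold change of isthmus over ampulla (horizontal axis) with its SE for the 9 genes tested, on the ipsilateral and the contralateral side, averaged over the 3 metabolic groups, filled where the adjusted p was under 0.05. NOS2 and OAT lie below 0 on both sides, and ODC1 (1.42 and 0.48), SMS (1.21 and 0.54), ALDH18A1 and PYCR1 above 0 on both.

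The metabolic groups were compared in each of the 4 tissues, which made 12 comparisons that partly share animals. edgeR's quasi-likelihood test called 0 of the 9 genes in any of them, where 0.0073% of genes were called in the ipsilateral isthmus when non-lactating cows were set against heifers, and 0% in the other 11. An unadjusted p under 0.05 was seen in 5 of 27 tests in the ipsilateral isthmus (9.48% over all genes), 3 of 27 in the ipsilateral ampulla (4.78%), 2 of 27 in the contralateral isthmus (7.92%) and 2 of 27 in the contralateral ampulla (4.72%). The smallest adjusted p was that of ODC1 for non-lactating cows against heifers, ipsilateral isthmus, with the values of the 5 heifers (38.8 to 58.8 CPM) all above those of the 5 non-lactating cows (25.4 to 36.8 CPM), as for 1.26% of genes in that direction. The log2 fold change was -0.70 ± 0.14 (adjusted p = 0.121), and ALDH18A1 had -0.42 ± 0.11 (adjusted p = 0.18) in the same comparison. DESeq2 called both genes there (adjusted p = 0.00205 and 0.0239), with 1.74% of genes called, and none of the 10 genes in the other 11 comparisons, with 0.144% of genes called there. Without the mismatched libraries edgeR called 0 of the 9 in the 3 comparisons of the ipsilateral ampulla, with 1 of 27 tests at an unadjusted p under 0.05, that of ASS1 in lactating against non-lactating cows. The other values with an unadjusted p under 0.05 in the ipsilateral isthmus were NOS2 in lactating against non-lactating cows (-1.85 ± 0.67) and in non-lactating cows against heifers (1.30 ± 0.59), and SMS in lactating cows against heifers (-0.48 ± 0.19), with adjusted p-values of 0.413 to 0.798.

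A list of 53 other genes of arginine, nitric oxide, creatine, glutamate, proline and polyamine metabolism was read in the same fits. The table held 51 of them, and 34 to 40 passed the filter in a comparison. Between the sides of the isthmus, over the 3 groups, 11 of 39 were higher ipsilaterally and 1 lower, where 14.3% of all genes were called higher and 12.9% lower, with a median log2 fold change of 0.10 against -0.02 over all genes. With the animal as a block 13 were higher and 2 lower, in a fit whose shares over all genes are not given here. PEPD, which splits dipeptides that end in proline, rose by 0.96 ± 0.13, from 51.2 ± 9.71 to 105 ± 42.3 CPM. GLUD1, glutamate dehydrogenase, rose by 0.82 ± 0.13, from 192 ± 59.2 to 355 ± 142 CPM. ALDH4A1, which oxidizes pyrroline-5-carboxylate to glutamate, rose by 0.69 ± 0.17, GOT1, the cytosolic aspartate aminotransferase, by 0.59 ± 0.11, and EIF5A, the translation factor that carries the spermidine-derived residue hypusine, by 0.61 ± 0.08. SLC7A2, a transporter of arginine and other cationic amino acids, was the gene that fell, from 18.0 ± 6.48 to 10.3 ± 4.35 CPM (log2 fold change -0.80 ± 0.20, adjusted p = 0.00423).

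By group, 6 of 36 listed genes were higher in the ipsilateral isthmus of heifers and none lower, against 5.71% of all genes called higher. In the fit with the animal as a block 7 were higher and 1 lower, and its shares over all genes are not given here. Among the 6 were PEPD (1.37 ± 0.24) and GLUD1 (1.10 ± 0.20), and OAZ1, the antizyme that directs ODC1 to degradation (0.35 ± 0.10). In non-lactating cows 3 of 37 were higher, against 2.94% of all genes, and 1 lower, namely PEPD (0.91 ± 0.17), EIF5A (0.65 ± 0.15), the prolyl hydroxylase subunit P4HA2 (0.64 ± 0.16) and SLC7A2 (-1.06 ± 0.25). edgeR's quasi-likelihood test called 0 of 36 in lactating cows, where 6 had an unadjusted p under 0.05 (12.2% over all genes). There DESeq2 called 3 (2.62% over all genes), and the fit with the animal as a block called 1, GLUD1 (2.32% over all genes). The test without the block called 0 of 36 in the ampulla over the 3 groups, against 4.09% of all genes, and DESeq2 called 0. An unadjusted p under 0.05 was seen for 10 of the 36, and the share over all genes at that threshold is not given here. GLUD1 (1.06 ± 0.15), ALDH4A1 (0.88 ± 0.23) and PEPD (0.77 ± 0.17) had a larger ipsilateral excess in the isthmus than in the ampulla, 3 of 40 listed genes, against 3.19% of all genes.

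Between the regions, 17 of 39 listed genes were higher in the ipsilateral isthmus and 5 lower, and 15 and 6 of 39 on the contralateral side. Of all genes, 24.1% were higher and 25.5% lower ipsilaterally, and 21.1% and 21.4% contralaterally. The other nitric oxide synthases lay opposite to NOS2. NOS3, the endothelial form, had 5.57 ± 3.39 CPM in the ipsilateral isthmus and 0.214 ± 0.257 CPM in the ipsilateral ampulla (log2 fold change 4.54 ± 0.45). Endothelial marker sums, in which KDR had the highest median of the markers found, were lower in the isthmus. The cell source of NOS3 was not tested. NOS1, the neuronal form, had 60.9 ± 32.0 against 9.10 ± 6.06 CPM (2.71 ± 0.32). Contralaterally the log2 fold changes were 4.03 ± 0.43 for NOS3 and 3.25 ± 0.36 for NOS1. SAT1, which acetylates spermidine and spermine for breakdown or export, rose by 1.71 ± 0.13 ipsilaterally and by 1.52 ± 0.15 contralaterally, and MAOA, a monoamine oxidase, was lower in the isthmus by -1.89 ± 0.11 and -1.95 ± 0.16.

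Across the 12 condition means of log2 CPM, ODC1 followed ALDH18A1 (r = 0.91) and SMS (r = 0.88), and ALDH18A1 followed SMS (r = 0.87). NOS2 followed OAT (r = 0.83), and OAT ran opposite to PYCR1 (r = -0.84). The points share animals and libraries, so these values are descriptions. Among 12770 genes, those most like ODC1 were PLIN2, SH3BGRL and FABP3 (each r = 0.975). The genes closest to ALDH18A1 were PARVA (r = 0.984), EIF4G1 (0.981) and PTPRF (0.981), those closest to SMS were PFKL (0.984), TOP1 (0.981) and ADIRF (0.979), and those closest to NOS2 were MSH5 (0.983), GPSM1 (0.978) and KCNH3 (0.969), all over the same 12 means.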

How the data were processed

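Per the labels and the study's methods, the authors made stranded libraries from total RNA, sequenced them in single-end reads, aligned these with TopHat2 (version 2.0.13) to the genome build Btau_4.6.1, and assigned them to genes by strand with HTSeq (version 0.6.1), versions as in the submitters' processing notes. The deposited table holds whole-number counts per gene symbol, not normalized. Reads on genes were 8.66 to 13.7% of the counted alignments. Reads aligned to several places were counted to no gene, and whether the 10 genes have near-identical copies was not tested.

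The counts were analysed in R (version 4.3.3) with edgeR (version 4.0.16): TMM scaling, genes kept by filterByExpr with a minimum count of 10, and the quasi-likelihood F test with Benjamini-Hochberg adjustment over all genes tested, on the libraries of each comparison and without a block, since the study's test states no pairing. Comparisons averaged over metabolic groups gave each group the same weight. The SE is the log2 fold change over the root of F, the prior count for log2 CPM was 2 and the floor of detection 3 counts. Floors cover counting error only, and p-values the spread between libraries. In fits without a block, libraries of the same animal entered as separate units. Alternatives were RLE size factors, no filter, DESeq2 (version 1.42.0, a likelihood ratio test for the interaction with metabolic group), the animal as a replicate block, leaving out the mismatched libraries and leaving out each animal in turn. The block together with leaving out the mismatched libraries, and leaving out alone each library whose number belongs to another group, were added after seeing the data. The animal numbers come from the column names. Outside the mismatched libraries each library correlated best with its own animal, at 0.476 or more, over genes picked with those same numbers.

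The 10 genes and the lists of pathway and marker genes were chosen with earlier results of these data known. Named are the 10 genes in every comparison, at most 6 called genes of the pathway list per comparison by size of change, and the 3 genes most like each of ODC1, ALDH18A1, NOS2 and SMS. The tests were also tried on simulated data.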

Additional observations from a re-analysis of the deposited data

Results flagged for a closer look

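The side difference of ODC1 differed between the regions, with an ipsilateral excess larger in the isthmus than in the ampulla by 0.95 on the log2 scale (adjusted p = 0.00125, edgeR's quasi-likelihood test of the interaction), and that of SMS by 0.68 (adjusted p = 0.0115). Single libraries stood apart from the others of their condition in 6 of 120 conditions looked at, gene by gene, where chance gives about 1 in 20. For SRM both libraries of lactating cow B in the isthmus were the highest of 4, at 11.2 CPM ipsilaterally (next 9.04 CPM) and 8.51 CPM contralaterally (next 6.42 CPM). PYCR1 was at 14.6 CPM in the ipsilateral isthmus of heifer A (next 11.4 CPM). The other 3 concern ARG2 in the ampulla on 6 counts or fewer, at 0.741 CPM ipsilaterally in non-lactating cow A, 0.474 CPM ipsilaterally in lactating cow D and 1.19 CPM contralaterally in non-lactating cow B.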

How the results depend on the processing

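No member changed direction in a called comparison under any alternative run. Outside the leaving out of animals, 166 values of single genes kept their side of the threshold, 2 lost the call and 16 gained it, and with an animal or library left out 404 kept it, 15 lost it and 1 gained it. Of the 9 genes, the number called between the sides went, for lactating cows' isthmus, from 0 to 3 with DESeq2 and to 3 with the animal as a block. In the ampulla of non-lactating cows it went from 0 to 1 without the filter, 2 with DESeq2, 1 with the block and 1 with the block and without the mismatched libraries, and from 0 to 1 with libraries left out (1 without the library numbered as lactating cow B). For non-lactating cows against heifers, ipsilateral isthmus, it went from 0 to 2 with DESeq2. Between sides of the ampulla over the 3 groups it went from 2 to 1 with the block and without the mismatched libraries, and was 1 to 2 with animals left out (1 without lactating cow D). In the isthmus of non-lactating cows it went from 3 to 1 whichever animal was left out. The cause of these changes was not tested. In the other comparisons between sides or regions, where the block could be fitted (not between metabolic groups, which are different animals), it left the number within 1.5 times of that without it, going from 2 to 3 in the isthmus of heifers with OAT added. RLE size factors, and leaving out the mismatched libraries without the block, moved no number by more than that. Groups of 4 or 5 animals, and 10 to 111 counts per library for PYCR1, ASS1, ASL and SRM, limit what could be detected. ARG2 was below the depth at which a difference between sides or metabolic groups could be seen.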
